A study of Homo sapiens with 9 samples.

Results

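The enzymes that attach ubiquitin to histone H2B, and the PAF1 complex that works with them during transcription, were followed as transcripts in HCT116 cells. The set holds 10 genes, taken by symbol from the 63677 genes of the deposited table, and each symbol had a single row on a primary chromosome. HCT116 is a human colon carcinoma line. Polyadenylated RNA from 9 samples was sequenced, 48 h after the cells had received small interfering RNA (siRNA). The groups were siRNF40 cells, labelled RNF40 knockdown, siTG2 cells, labelled TG2 knockdown, and siControl cells, labelled WT, with 3 replicates each. All groups were thus transfected, and all were the same line. The labels do not say whether replicates were separate cultures, so p-values measure only the spread between these libraries, which may be technical.

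Ubiquitin reaches H2B through a short relay. A conjugating enzyme, UBE2A or its close relative UBE2B (the human counterparts of yeast Rad6), carries the ubiquitin, and the ligase formed by RNF20 and RNF40 (counterparts of yeast Bre1) transfers it to the histone. WAC is an adaptor that links this ligase to RNA polymerase II. The PAF1 complex, with PAF1, CTR9, CDC73 and LEO1, travels with the polymerase, and RTF1, which in human cells is bound to it more loosely, stimulates the ligase reaction. The mark is known for opening transcribed chromatin and for promoting methylation of histone H3 by DOT1L and the SETD1 enzymes.

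UBE2A and UBE2B are so alike that their sequences bear on how far their reads can be told apart, and the stretch around the codon of the active-site cysteine, in capitals, is shown for each. The reference is GENCODE 29 on build GRCh38. Both genes lie on the plus strand, the UBE2A stretch at chrX:119582596-119582622 and the UBE2B stretch at chr5:134388333-134388359.
UBE2A: gatggtagtataTGTctggacatactt
UBE2B: gatggtagcataTGTttagatatcctt
Of these 27 bases, 22 are the same in both genes. Over the whole coding sequence of 459 bases, identity was 80.4%, and the longest run of identical bases was 25. No stretch of 50 bases was shared by transcripts of the pair.

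Levels are given as normalized read counts, that is reads per gene divided by the authors' size factor of the library. Between 29161285 and 35743918 reads per library fell in genes, and 1 read equals 0.88 to 1.1 units. Between replicate libraries, squared differences per gene averaged 5.17 to 23.1 times what counting error alone gives. This average runs over many genes and was not computed at the levels of the set. Within the set, replicate SDs ran from 5.82 at a mean of 1637 counts (RTF1 in siTG2) to 947 at 7646 (WAC in siRNF40). Whether replicate spread or counting error set the precision of each gene was not tested. Pairs of siRNF40 libraries gave 15.1 to 23.1, pairs of siTG2 libraries 7.39 to 17.8 and pairs of siControl libraries 5.17 to 8.74. The siRNF40 replicate 1 had 7842 counts of RN7SL2, a gene of the 7SL RNA, against 2760 and 2689 in its replicates and 812 to 1023 in siControl. RN7SL2 had 820, 2317 and 1505 counts in siTG2, so its level differed between groups as well as within siRNF40. In siTG2, TGM2, the gene of transglutaminase 2, had 59.4, 121 and 155 counts, against 559, 702 and 554 in siControl, and in siRNF40 it had 839, 830 and 963. Epithelial EPCAM, KRT8, KRT18, CDH1 and CDX2 were present in every library. The others of that list were low, with group means of 6.61 to 19.6 for CDH17, 0.344 to 4.30 for VIL1 and 2.93 to 6.69 for LGR5. Summed, 8 epithelial markers had 93760 to 109400 counts in siRNF40, 55970 to 65930 in siTG2 and 60150 to 65390 in siControl. KRT8 was the largest part of this sum, averaging 67730 in siRNF40, 38110 in siTG2 and 36810 in siControl. The sum of 6 leukocyte markers stood at 7.47 to 19.4 in siRNF40, 28.3 to 55.6 in siTG2 and 18.8 to 21.7 in siControl. That of 6 fibroblast markers, nearly all of it COL1A1, was 1371 to 1705 in siRNF40, 1016 to 1172 in siTG2 and 822 to 998 in siControl, and COL1A2 was at 0 in siRNF40 and siControl.

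In siRNF40, some transcripts of the relay and of the PAF1 complex were lower than in siControl, while others were not. Besides the targeted RNF40, CDC73 stood at 51.8% of its siControl level, UBE2A at 61.5% and WAC at 75.8%. RNF20, UBE2B, LEO1 and RTF1 did not pass the test, and PAF1 was higher. Of the 10 genes, 5 were called lower and 1 higher. Without RNF40 itself, 4 of 9 were lower and 1 higher, or 55.6%. Calls rest on limma, with a Benjamini-Hochberg adjusted p under 0.05 over 17663 tested genes, all 10 genes included. At that threshold 45.3% of all tested genes were called, 23.6% lower and 21.7% higher. The share called in either direction among the 10 thus lies near the background of this comparison. By direction the calls leaned to lower, and 9 of the 10 had a negative log2 fold change, a lean that was not tested. The targeted RNF40 is among those 9. The median log2 fold change was -0.21 over the 10 genes, -0.20 without RNF40 and 0.016 over all tested genes.

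**Figure D1:**
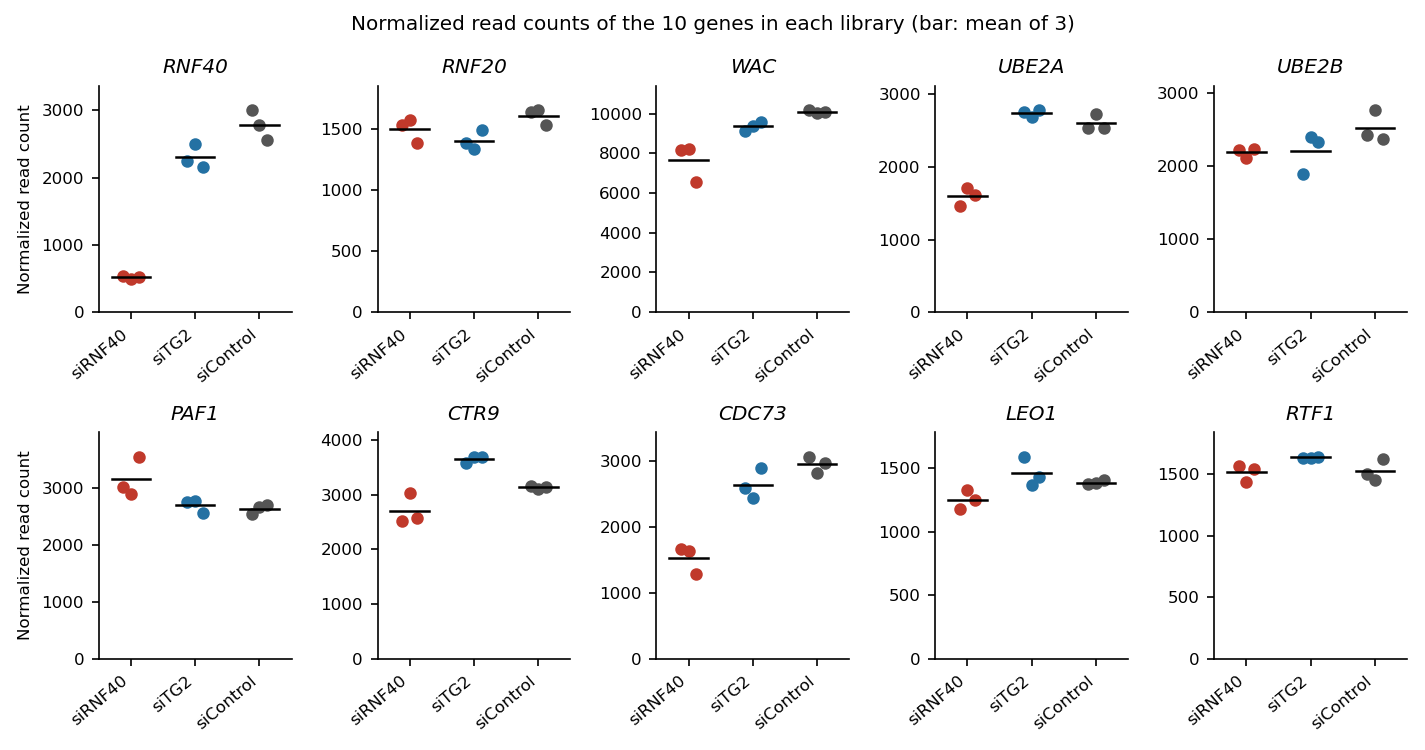
Normalized read counts (vertical axes, starting at 0) of the 10 genes in each of 9 libraries, with points for libraries and a bar for the mean of 3. RNF40, CDC73, UBE2A and WAC lie lower in all siRNF40 libraries than in all siTG2 and siControl libraries, while RNF20 and RTF1 overlap between siRNF40 and siControl.

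Within the ligase, the targeted subunit alone passed the test. RNF40 (ENSG00000103549; hg19 chromosome 16, 30773066 to 30787628, plus strand) had 535, 497 and 528 counts in siRNF40, against 3004, 2784 and 2565 in siControl. The siRNF40 libraries differed little from each other, all at less than any other library. The log2 fold change was -2.42 (SE 0.085, limma adjusted p = 5.3e-13). RNF20 (ENSG00000155827; chromosome 9, 104296133 to 104325622, plus strand), its partner in the ligase, had 1536, 1578 and 1389 counts in siRNF40, against 1640, 1657 and 1536 in siControl. These ranges overlap, and the log2 fold change was -0.10 with a 95% interval of -0.27 to 0.066 (limma adjusted p = 0.32). WAC (ENSG00000095787; chromosome 10, 28821422 to 28912041, plus strand) had 8161, 8224 and 6552 counts in siRNF40, against 10178, 10022 and 10068 in siControl. All siRNF40 libraries were lower, replicate 3 most of all, with a log2 fold change of -0.41 (SE 0.074, limma adjusted p = 0.00017).

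Of the conjugating enzymes, only UBE2A passed the test. UBE2A (ENSG00000077721; chromosome X, 118708501 to 118718381, plus strand) had 1468, 1717 and 1619 counts in siRNF40, against 2540, 2727 and 2541 in siControl, with no overlap. It fell by 0.70 on the log2 scale (SE 0.074, limma adjusted p = 3.1e-07). UBE2B (ENSG00000119048; chromosome 5, 133706870 to 133727683, plus strand) had 2222, 2105 and 2237 counts in siRNF40, against 2421, 2762 and 2361 in siControl. Its libraries did not overlap either, yet the log2 fold change of -0.20 missed the threshold (95% interval -0.38 to -0.011, limma adjusted p = 0.079). It passed in 3 of 20 alternative analyses, with adjusted p-values of 0.035 to 0.05, among a range of 0.035 to 0.32. Libraries without overlap are common here, since 53.2% of all tested genes had none between siRNF40 and siControl, against 8 of these 10, RNF40 included.

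Among PAF1 complex genes, CDC73 moved most. CDC73 (ENSG00000134371; chromosome 1, 193091147 to 193223031, plus strand) encodes parafibromin, a tumour suppressor lost in hyperparathyroidism-jaw tumour syndrome. It had 1663, 1632 and 1293 counts in siRNF40, against 3068, 2819 and 2970 in siControl. The groups lay far apart, with a log2 fold change of -0.96 (SE 0.093, limma adjusted p = 1.1e-07), and 12.6% of all tested genes moved further. CTR9 (ENSG00000198730; chromosome 11, 10772534 to 10801290, plus strand), the scaffold subunit, had 2516, 3030 and 2571 counts in siRNF40, against 3159, 3102 and 3131 in siControl. Its siRNF40 libraries were lower but scattered, with replicate 2 just under the controls, and the log2 fold change was -0.22 (SE 0.073, limma adjusted p = 0.022). PAF1 (ENSG00000006712; chromosome 19, 39876492 to 39881835, minus strand), which gives the complex its name, had 3010, 2892 and 3545 counts in siRNF40, against 2540, 2668 and 2697 in siControl. It alone of the 10 had a higher mean than in siControl, and the log2 fold change was 0.25 (SE 0.078, limma adjusted p = 0.013).

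The CTR9 and PAF1 calls in siRNF40 were thin. The CTR9 call ended without siRNF40 replicate 1 (log2 fold change -0.17, limma adjusted p = 0.105), siRNF40 replicate 3 (-0.18, 0.059), siControl replicate 1 (-0.21, 0.068) or siControl replicate 3 (-0.22, 0.057), and under quantile normalization (-0.15, 0.088). The PAF1 call ended without siRNF40 replicate 3 (0.16, limma adjusted p = 0.067) or siControl replicate 1 (0.23, 0.061). RNF40, WAC, UBE2A and CDC73 were called lower in all 20 alternatives, with log2 fold changes of -1.02 to -0.84 for CDC73, -0.75 to -0.63 for UBE2A and -0.46 to -0.30 for WAC.

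The other subunits stayed closer to control. LEO1 (ENSG00000166477; chromosome 15, 52230222 to 52264003, minus strand), the partner of PAF1 within the complex, had 1180, 1329 and 1250 counts in siRNF40, against 1377, 1382 and 1405 in siControl. The groups did not overlap, but the log2 fold change of -0.15 missed the threshold (95% interval -0.32 to 0.024, limma adjusted p = 0.15). RTF1 (ENSG00000137815; chromosome 15, 41700606 to 41775761, plus strand) had 1565, 1437 and 1543 counts in siRNF40, against 1506, 1457 and 1624 in siControl. These overlap in part, and the log2 fold change of -0.012 had a 95% interval of -0.17 to 0.15 (limma adjusted p = 0.91) and turned to 0.051 under quantile normalization. WDR61, a further subunit of the human complex that it shares with the Ski complex of RNA decay, averaged 995 counts in siRNF40 and 915 in siControl (log2 fold change 0.12, limma adjusted p = 0.31).

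Some loci overlap others, and whether reads were counted by strand is not given in the sources used here. LEO1 overlaps MAPK6 by 19701 bases and TMOD3 by 9271, both on the opposite strand. MAPK6 averaged 5592 counts in siRNF40, 8327 in siTG2 and 7476 in siControl, the same order as LEO1, and TMOD3 averaged 7342 counts in siRNF40, 5691 in siTG2 and 7195 in siControl. The part of MAPK6 and TMOD3 reads in the LEO1 values was not tested. WAC overlaps the antisense gene WAC-AS1 by 251 bases, and WAC-AS1 averaged 322 counts in siRNF40, 504 in siTG2 and 483 in siControl. RNF40 overlaps C16orf93 by 966 bases, a gene at 10.9 counts in siRNF40, 22.1 in siTG2 and 23.2 in siControl. Stretches of 50 bases shared with genes elsewhere in GENCODE 29 made up 0% for RNF40, RNF20 and PAF1, 2.13% for CTR9, 0.801% for WAC, 0.754% for UBE2A, 0.71% for LEO1, 0.466% for CDC73, 0.0867% for RTF1 and 0.0583% for UBE2B. Stretches shared with genes that overlap them in GENCODE 29 made up 42.5% for RNF40 and 16.7% for UBE2A, and at most 1.91% for each of the other 8 genes. The part of reads from such genes in the RNF40 and UBE2A values was not tested.

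**Figure D2:**
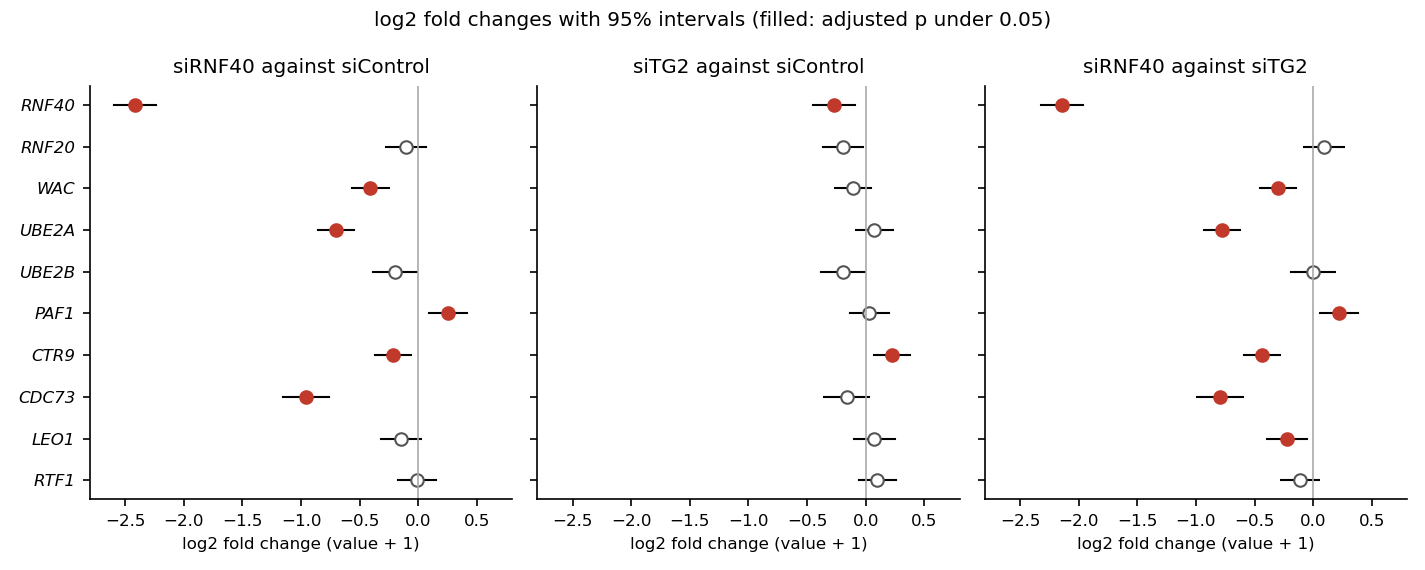
Log2 fold changes of deposited value plus 1 (horizontal axes) of the 10 genes in 3 comparisons, with limma 95% intervals as lines and filled points for an adjusted p under 0.05. In siRNF40 against siControl, RNF40 (-2.42), CDC73 (-0.96), UBE2A (-0.70) and WAC (-0.41) stand left of 0, while in siTG2 against siControl all but RNF40 and CTR9 have open points.

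In siTG2, these transcripts stayed within a narrow band around control, from 82.8% (RNF40) to 117% (CTR9) of the siControl mean. The comparison asks what changes when transglutaminase 2, which the series links to the addition of serotonin to histone H3, is depleted. Of the 10 genes, 1 was called lower and 1 higher, against 31.3% of all tested genes called in either direction, 18.5% lower and 12.8% higher. Over all genes 2263 were higher and 3270 lower, and with all libraries set to equal totals, which moved the median of all genes to 0.135, 3871 were higher and 1890 lower. The median log2 fold change was -0.038 over the 10 genes and -0.0069 over all tested genes. Between siTG2 and siControl libraries, 5 of the 10 had no overlap, against 46.5% of all tested genes.

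RNF40 had 2249, 2506 and 2158 counts in siTG2, against 3004, 2784 and 2565 in siControl. All siTG2 libraries were lower, by 0.27 on the log2 scale (SE 0.085, limma adjusted p = 0.019). CTR9 had 3576, 3693 and 3683 counts in siTG2, against 3159, 3102 and 3131 in siControl. All siTG2 libraries were higher, by 0.22 (SE 0.073, limma adjusted p = 0.027). Both calls were weak, and each ended in 6 of 20 alternatives. The fit pools the spread of all 3 groups, and CTR9 scattered more in siRNF40 (SD 282 counts) than in siTG2 (64.6) or siControl (28.5). The CTR9 call ended without siTG2 replicate 2 (0.21, limma adjusted p = 0.064), siTG2 replicate 3 (0.21, 0.079), or siControl replicate 1 (0.23, 0.067), 2 (0.21, 0.079) or 3 (0.22, 0.069), and with no filter on low values (0.22, 0.054). The RNF40 call ended without siTG2 replicate 1 (-0.26, limma adjusted p = 0.062), siTG2 replicate 3 (-0.23, 0.10), siControl replicate 1 (-0.22, 0.12) or siControl replicate 2 (-0.27, 0.058), under quantile normalization (-0.15, 0.21) and with equal totals (-0.13, 0.26).

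The remaining 8 genes missed the threshold in siTG2. RNF20 had 1384, 1340 and 1495 counts in siTG2, against 1640, 1657 and 1536 in siControl. Its libraries did not overlap, and the log2 fold change was -0.20 (95% interval -0.37 to -0.027, limma adjusted p = 0.072). WAC had 9140, 9375 and 9590 counts in siTG2, against 10178, 10022 and 10068 in siControl, also without overlap, with a log2 fold change of -0.11 (95% interval -0.26 to 0.048, limma adjusted p = 0.30) that turned to 0.10 under quantile normalization and 0.036 with equal totals. RTF1 had 1636, 1631 and 1643 counts in siTG2, against 1506, 1457 and 1624 in siControl, again without overlap and with a log2 fold change of 0.10 (95% interval -0.060 to 0.26, limma adjusted p = 0.35).

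UBE2A, UBE2B, PAF1, CDC73 and LEO1 overlapped between siTG2 and siControl. UBE2A had 2752, 2683 and 2783 counts in siTG2, against 2540, 2727 and 2541 in siControl (log2 fold change 0.074). UBE2B had 1891, 2400 and 2325 counts in siTG2, against 2421, 2762 and 2361 in siControl (-0.19). CDC73 had 2591, 2435 and 2900 counts in siTG2, against 3068, 2819 and 2970 in siControl (-0.16, 95% interval -0.36 to 0.032, limma adjusted p = 0.20). PAF1 averaged 2693 ± 113 counts in siTG2 and 2635 ± 83.6 in siControl, and LEO1 1464 ± 115 in siTG2 and 1388 ± 14.9 in siControl (SD, n = 3 each).

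Since both knockdowns share the siControl libraries, the difference between their effects was read from siRNF40 against siTG2 directly. In this contrast, 6 of the 10 genes were called lower in siRNF40 and 1 higher, or 70%. Without RNF40, the target of the siRNA, 5 of 9 were lower and 1 higher, or 66.7%. Of all tested genes 53.3% were called, 26.6% in each direction. Between these groups 8 of the 10, RNF40 included, did not overlap, against 58.3% of all. Over all genes 4704 were higher and 4706 lower, and with equal totals, which moved the median to -0.189, 3278 were higher and 6323 lower. The log2 fold change of siRNF40 against siTG2 was -0.79 for CDC73 (limma adjusted p = 7.3e-07), -0.78 for UBE2A (5.1e-08), -0.44 for CTR9 (5.0e-05) and -0.30 for WAC (0.0021), each called in all 20 alternatives, and -2.14 for RNF40 itself (5.2e-13). Against siControl, CTR9 was called lower in siRNF40 and higher in siTG2, calls that ended in 5 and 6 of 20 alternatives. RNF20 (0.093, 95% interval -0.076 to 0.26, and -0.083 with equal totals) and UBE2B (-0.0041, 95% interval -0.19 to 0.18) did not pass, and neither did RTF1 (-0.11, 95% interval -0.27 to 0.047).

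LEO1 was lower by 0.22 in siRNF40 than in siTG2 (limma adjusted p = 0.029), a call that ended without siRNF40 replicate 1 (-0.18, 0.11), siTG2 replicate 1 (-0.16, 0.15) or siTG2 replicate 3 (-0.24, 0.053), with only the 6 libraries of the contrast (-0.22, 0.055) and with no filter on low values (-0.22, 0.050). PAF1 was higher by 0.22 (limma adjusted p = 0.022). That call ended without siRNF40 replicate 3 (0.13, 0.13) or siTG2 replicate 3 (0.19, 0.10), under quantile normalization (0.16, 0.12), with equal totals (0.045, 0.66) and with TMM scaling (0.19, 0.051).

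Ratios of genes within a library do not depend on how libraries are scaled to each other, though a ratio of counts is not a ratio of molecules. The log2 ratio of RNF40 to RNF20 was -1.52, -1.67 and -1.39 in siRNF40 and 0.70, 0.90 and 0.53 in siTG2, against 0.87, 0.75 and 0.74 in siControl. The siRNF40 libraries stood far below the others, while siTG2 overlapped siControl. The log2 ratio of UBE2A to UBE2B was -0.60, -0.29 and -0.47 in siRNF40 and 0.54, 0.16 and 0.26 in siTG2, against 0.069, -0.018 and 0.11 in siControl. Neither knockdown overlapped siControl, siRNF40 lying below it and siTG2 above. In siTG2, UBE2A and UBE2B each overlapped siControl as single genes, and neither was called. How often ratios of other gene pairs lack overlap was not computed. CDC73 was set against the mean of PAF1, CTR9, LEO1 and RTF1, and the log2 ratio was -0.22, -0.31 and -0.66 in siRNF40 and 0.20, 0.16 and 0.42 in siTG2, against 0.60, 0.48 and 0.50 in siControl. The CDC73 ratio differed from siControl by -0.93 on average in siRNF40 and by -0.27 in siTG2, where CDC73 itself missed the threshold. In siRNF40, CDC73 was the gene of the complex that moved most, so its ratio there restates that change. In siTG2, PAF1 (log2 fold change 0.031), CTR9 (0.22), LEO1 (0.075) and RTF1 (0.10) averaged above siControl, so the ratio does not measure CDC73 alone. The UBE2A to UBE2B ratio differed by 0.27 in siTG2, and by 0.16 without siTG2 replicate 1. The ratios are a description and were not tested, and an exact two-sided permutation test of 3 against 3 libraries cannot go below p = 0.1.

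**Figure D3:**
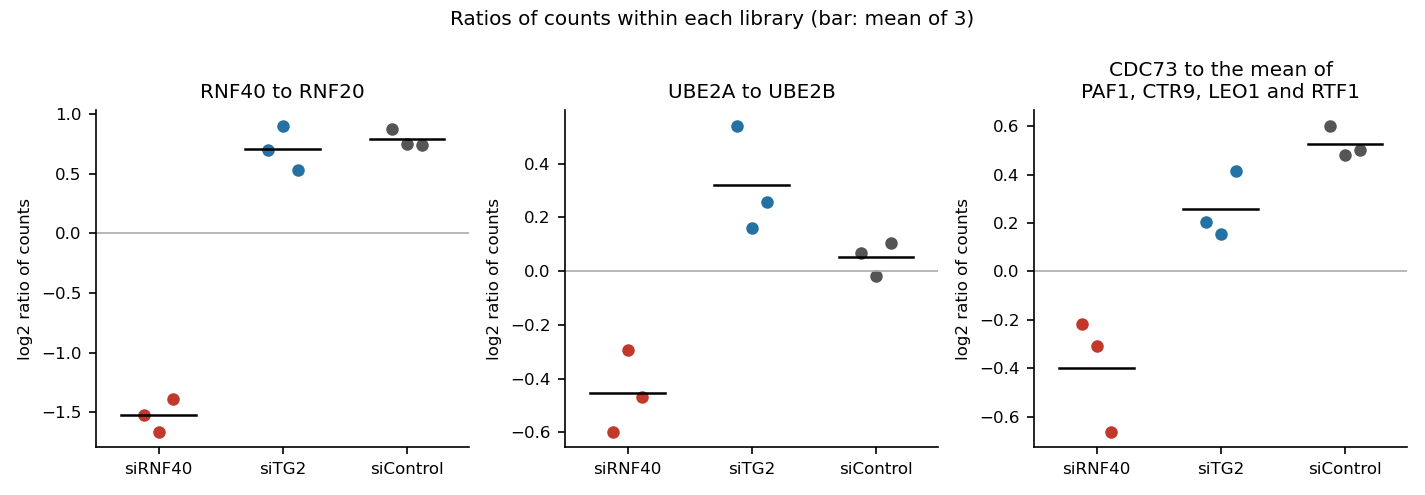
Log2 ratios of normalized counts within each library (vertical axes), for RNF40 to RNF20, UBE2A to UBE2B, and CDC73 to the mean of PAF1, CTR9, LEO1 and RTF1, with a bar for the mean of 3 libraries. In siRNF40 all 3 ratios lie below 0 in every library, and in siControl the means are 0.79, 0.052 and 0.53.

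Levels of different genes were compared per length, as normalized counts per kb of the exon union in GENCODE 29, which may differ from the annotation the authors counted on. In siControl, PAF1 had the highest level, 988 ± 31.3 per kb, followed by WAC at 828 ± 6.56 and UBE2B at 764 ± 65.6 (SD, n = 3), and WAC and UBE2B overlapped between libraries. CTR9 (520 ± 4.73), LEO1 (518 ± 5.55) and UBE2A (493 ± 20.4) overlapped as well. RNF40 (427 ± 33.6) and RNF20 (343 ± 13.9) followed without overlap, and CDC73 (276 ± 11.7) and RTF1 (265 ± 14.9) closed the order with overlapping libraries. By this measure RNF40 stood at 79.7 per kb in siRNF40 and 353 in siTG2, CDC73 at 143 in siRNF40 and 247 in siTG2, and UBE2A at 303 in siRNF40 and 519 in siTG2. Per length of the longest transcript, WAC came first and UBE2A rose to the fourth place in siControl, so the order depends on the length chosen.

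**Figure D4:**
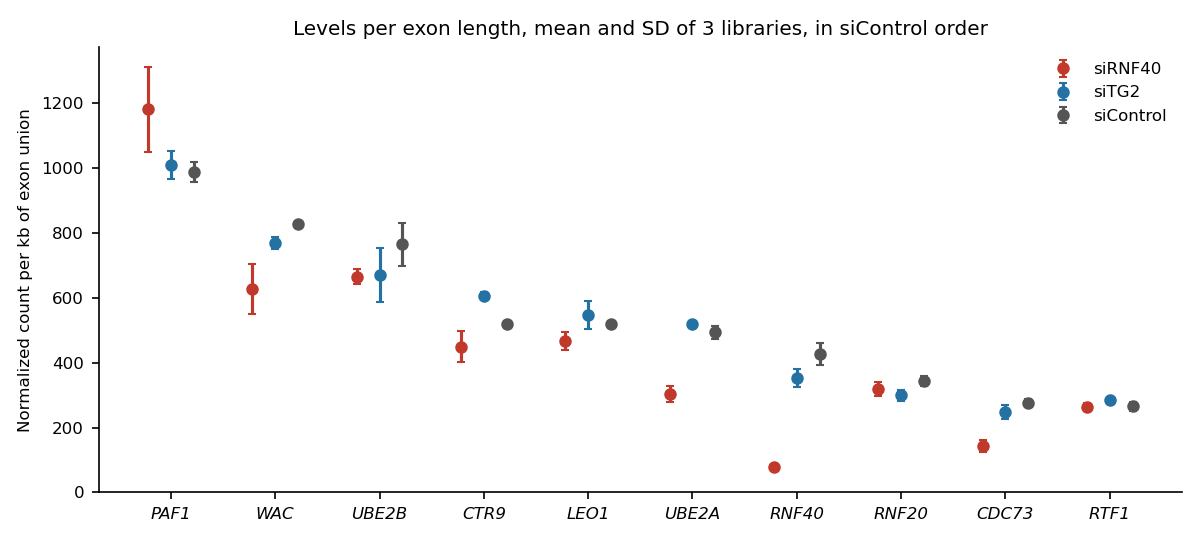
Normalized counts per kb of exon union (vertical axis, starting at 0) of the 10 genes, in order of their siControl mean, with SD bars over 3 libraries. PAF1 is highest and CDC73 and RTF1 lowest in siControl, and RNF40 drops to the bottom of the order in siRNF40 (79.7 per kb).

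The genes also differ in span and in a short word of their transcripts. CDC73 spans 132 kb, WAC 90.6 kb and RTF1 75.2 kb, and of these the first 2 were called lower in siRNF40 while RTF1 was not. PAF1, the gene called higher, has the shortest span of the 10 (5.34 kb), and UBE2A, called lower, has the next shortest (9.88 kb). The word GTCTTCA had been picked earlier from these same libraries for its link between 3' UTRs and lower values in siRNF40, so that link is not independent. It was searched on the transcript strand, in the coding sequence and 3' UTR of the principal transcript in GENCODE 29. It occurs in 26.4% of 13333 protein-coding genes searched, and 49.1% of those were called lower in siRNF40, against 28.7% of all searched. The genes with the word are part of all searched. Longer sequences have more places for such a word, and length was not allowed for. Principal transcripts of the 10 genes ran from 1874 bases (UBE2A) to 6100 (CDC73).

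The word was found in 5 of the 10 genes, and its sites are shown with the word in capitals, because they bear on which genes of the set share it. RNF40 holds it at chr16:30763461-30763487 and chr16:30767920-30767946 in the coding sequence and at chr16:30776263-30776289 in the 3' UTR. The other sites lie at chr9:101551687-101551713 in RNF20, at chr1:193135423-193135449 in CDC73, across an exon junction in WAC, and at chr5:134390888-134390914 in UBE2B, all in GRCh38 on the plus strand.
RNF40 coding, upstream: agggggagctGTCTTCAgcgcctgagg
RNF40 coding, downstream: ctgattagtaGTCTTCAaaaccacaac
RNF40 3' UTR: ctcctcgtggGTCTTCAtacctaataa
RNF20 coding: gatgaggttaGTCTTCAtaagaagctg
WAC coding: tctcctcgaaGTCTTCAgcgctcaagt
CDC73 coding: ttagaaatagGTCTTCAgcgatctact
UBE2B 3' UTR: tatcaaggaaGTCTTCAaatttgattc
Of the 5 genes with the word, RNF40, CDC73 and WAC were called lower in siRNF40, and RNF20 and UBE2B were not. Without RNF40, the target of the siRNA, 2 of 4 were lower. Of the 5 without it, UBE2A and CTR9 were called lower. GCGCCCT, picked in the same way for siTG2, occurs in 0 of the 10 genes, against 9.62% of all coding sequences and 2.81% of all 3' UTRs searched. A match is a description of these letters only, and its part in the changes was not tested.

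Genes whose profile over the 9 libraries was most like that of 2 of these genes were named by the smallest root mean square difference of log2 levels relative to siControl, among 11516 genes with a mean of at least 100. For RNF40 they were ASF1B, a chaperone of histones H3 and H4 (difference 0.14), MMGT1 (0.17) and FAM111B (0.19). ASF1B averaged 402 ± 32.7 counts in siRNF40 and 1456 ± 99.9 in siTG2, against 2052 ± 114 in siControl (SD, n = 3 each). For CDC73 they were KIAA0947 (0.063), RAP2C, a small GTPase (0.069), and NUPL1, a nucleoporin (0.071). KIAA0947 averaged 1769 ± 258 counts in siRNF40 and 3135 ± 374 in siTG2, against 3529 ± 221 in siControl.

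The wider pathway was read from 42 further genes in 5 lists, of which 40 reached the tested level. In siRNF40, 7 of the 40 were called higher and 10 lower, or 42.5%, against 45.3% of all genes. Of 8 H2B deubiquitinase and SAGA genes tested, 3 rose and 2 fell (median 0.075), or 62.5% called, against 45.3% of all tested genes. USP49, a deubiquitinase of H2B, averaged 2143 counts in siRNF40 and 1144 in siControl (0.91, limma adjusted p = 3.8e-08), and USP7 fell by 0.44.

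Among 12 elongation partners, 4 were called lower and 1 higher in siRNF40 (median -0.11), or 41.7%, against 45.3% of all tested genes. SUPT5H, a subunit of the DSIF elongation factor, rose by 0.62 on the log2 scale, and SUPT16H, of the FACT histone chaperone, fell by 0.46. A list of 14 genes held methyltransferases that act after H2B ubiquitin together with their complex subunits and partners. Of these, 2 rose and 3 fell (median 0.043), or 35.7%, against the same 45.3%. WDR82, a subunit of the SETD1 complexes, averaged 2902 counts in siRNF40 and 8220 in siControl (-1.50, limma adjusted p = 1.1e-12). DOT1L, the H3K79 methyltransferase, averaged 2399 counts in siRNF40 and 1565 in siControl (0.61, limma adjusted p = 5.1e-06). Of the other ligases that work with UBE2A or UBE2B, RAD18, of replication fork repair, fell by 0.60, and the other 2 genes did not pass. In the list of WDR61 and the Ski complex, SKIV2L, the helicase, rose by 0.39 and the other 2 genes did not pass.

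In siTG2, 5 of the 40 genes were called higher and 11 lower, or 40%, against 31.3% of all genes. Of the 14 genes of methyltransferases, their complex subunits and partners, 5 fell and 2 rose (median -0.12), or 50%, against 31.3% of all tested genes. DOT1L averaged 859 counts in siTG2 and 1565 in siControl (log2 fold change -0.87, limma adjusted p = 1.6e-07), and MLLT3, a reader of acetylated histones that binds DOT1L, averaged 156 in siTG2 and 83.0 in siControl (0.91, limma adjusted p = 0.0043). DOT1L was thus above siControl in siRNF40 and below it in siTG2, and directly it was higher in siRNF40 than in siTG2 by 1.48 (limma adjusted p = 3.1e-11). Among 12 elongation partners, 3 were called lower and 1 higher (median -0.094), or 33.3%, with SUPT4H1, the other subunit of DSIF, at 0.50 and SUPT16H at -0.49. Among 8 deubiquitinase and SAGA genes, 2 were called lower and 1 higher (median 0.067), or 37.5%, with USP3 at -0.51 and USP7 at -0.47. RAD18 fell by 0.47, and SKIV2L rose by 0.26, a call that ended in 6 of 20 alternatives, with 0.21 and a limma adjusted p of 0.14 without siTG2 replicate 2.

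**Figure D5:**
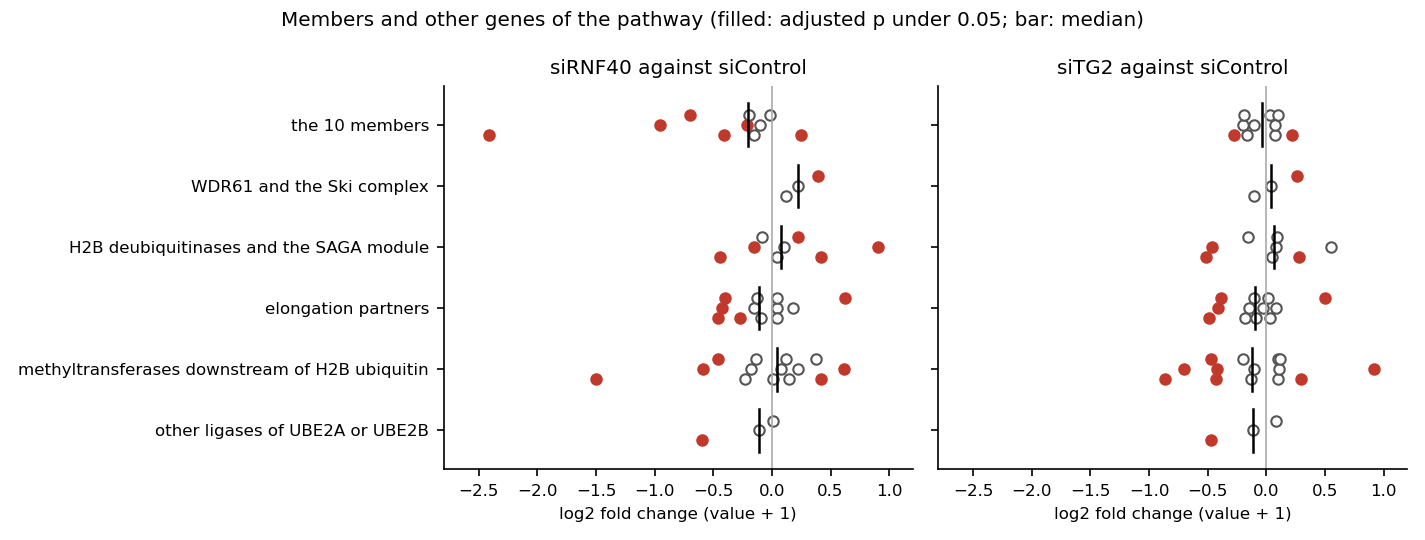
Log2 fold changes of deposited value plus 1 (horizontal axes) of the 10 genes and of 40 tested genes in 5 lists of the wider pathway, with filled points for a limma adjusted p under 0.05 and a bar at each row's median. In siRNF40 WDR82 (-1.50) is the lowest of the listed genes and USP49 (0.91) the highest, and in siTG2 DOT1L (-0.87) and MLLT3 (0.91) mark the ends.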

How the data were processed

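Polyadenylated RNA of HCT116 cells was sequenced in 9 libraries, 3 each of siRNF40, siTG2 and siControl. Per the submitters' processing notes, the tools were Trim Galore 0.4.1, STAR 2.7.0, HTSeq 0.12.4 and DESeq2. Of the builds in those notes, hg19 and hg38, no role is given. Positions in the table are hg19. The authors deposited a signal, in which each library's reads per gene had been scaled by its own DESeq2 size factor. After division by each column's step, all values lay within 0.001 of a whole read. Columns headed NC were taken as siControl. The authors also deposited 2 DESeq2 tables against siControl with log2 fold changes, p-values and a score, the Wald statistic, which was not used. In the authors' deposited tables, the same genes of the 10 had an adjusted p-value under 0.05 as were called here.

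Here limma 3.58.1 (R 4.3.3) was fitted with a trend to log2 of the value plus 1, over all 9 libraries and 3 group means, for 17663 genes with a mean of at least 10. The call was a two-sided Benjamini-Hochberg adjusted p under 0.05. The fit was also run on simulated counts, with the same dispersion for every gene and few changed genes. That setting is simpler than these data, so it does not show how many calls made here are false. The edgeR 4.0.16 quasi-likelihood test on recovered reads called 3718 genes higher and 4208 lower in siRNF40, and 2473 higher and 2982 lower in siTG2. DESeq2 1.42.0, other pseudocounts, filters and scalings, and leaving out each library were further alternatives. Lengths and sequences came from GENCODE 29 (GRCh38), joined by gene ID, with Python 3.11.15. The 10 genes and all lists were chosen with earlier results of these data known. All 10 are named, with up to 2 called genes and 1 uncalled gene of each further list. RN7SL2 and TGM2 are named as checks of the libraries. A further list of the pathway is not reported here.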

Additional observations from a re-analysis of the deposited data

How the results depend on the processing

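Of 960 single-gene values under alternatives, 906 kept their direction and side of the threshold, 35 lost and 9 gained a call, and 10 turned their sign, all of them uncalled; the cause was not tested. In siRNF40 against siControl, RTF1 turned to 0.051 under quantile normalization and ranged from -0.047 to 0.032 without 1 library. In siTG2, WAC turned to 0.10 under quantile normalization and 0.036 with equal totals, and WDR61 ranged from -0.019 to 0.10 without 1 library. In siRNF40 against siTG2, RNF20 turned to -0.083 with equal totals, and UBE2B ranged from -0.11 to 0.061 without 1 library. Of the 10 genes, those higher in siTG2 numbered 0 with no filter and 3 with equal totals, those lower 0 under quantile normalization and with equal totals and 2 with the 6 libraries of the contrast alone. Those higher in siRNF40 against siTG2 numbered 0 under quantile normalization, equal totals and TMM scaling. Over all genes, equal totals gave 3871 higher and 1890 lower in siTG2. Without 1 library, 0 to 1 of the 10 were higher and 4 to 6 lower in siRNF40, 0 to 1 higher and 0 to 2 lower in siTG2, and 0 to 1 higher and 5 to 6 lower in siRNF40 against siTG2. Per kb of the longest transcript, siControl levels were 494 for RNF40, 409 for RNF20, 1700 for WAC, 985 for UBE2A, 1000 for UBE2B, 1280 for PAF1, 683 for CTR9, 484 for CDC73, 633 for LEO1 and 305 for RTF1. With a replicate block, 5 of the 10 were lower and 1 higher in siRNF40, and over all genes 4042 were lower and 3693 higher. None of 9 same-number correlations of deviations passed 0.1 (-0.0754 to 0.0813), nor did any of 18 between different numbers (-0.0793 to 0.0916). The libraries were therefore not paired in the main fit, though such correlations cannot exclude a shared batch. Without 1 library, an alternative chosen after the data were seen, the UBE2A to UBE2B ratio in siTG2 minus siControl ranged from 0.16 to 0.35, that of RNF40 to RNF20 from -0.17 to 0.015 and that of CDC73 to its partners from -0.35 to -0.22.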
